A study of Mus musculus with 14 samples.

Results

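The genes described here are 44 mouse genes of the cell cycle, 17 that act in DNA replication or in the commitment to it and 27 that act in mitosis or peak around it. They were chosen by name, and all 44 matched 1 of the 56691 gene IDs counted. All 44 also passed the filter on low counts, which kept 21619 IDs. Mki67 and Top2a, which mark dividing cells from S phase onwards, were placed with the mitosis genes. The RNA came from whole mouse paws, which hold epidermis, hair follicles, dermis, muscle, cartilage, vessels and blood together. Postnatal day 3 (P3) gave 3 Krt9 null (Krt9-/-) and 5 wild-type (WT) libraries, and postnatal day 0 (P0), the day of birth, gave 2 Krt9 null and 4 WT libraries. Krt9 encodes a type I keratin of palm and sole epidermis. The sources used here do not give the allele, the strain or whether each library stands for 1 animal, so p-values measure the spread between these samples. Both sexes occur in every group, and sex as labelled was a covariate.

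A cell that commits to division in G1 activates E2F transcription factors through the G1 cyclins and their kinases. These factors switch on the genes that load the replicative helicase, supply nucleotides and copy DNA in S phase. A later wave of transcription, driven in G2 by the MuvB complex with B-Myb and Foxm1, supplies the cyclins, kinases, checkpoint proteins and motors of mitosis. The keratinocytes of the basal layer, the matrix cells of growing hair follicles and the proliferating cells of dermis and cartilage are known to express both sets in newborn skin. In whole tissue, more cycling cells and more RNA per cycling cell cannot be told apart.

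Each library held between 28947715 and 41004173 counts. Krt9 was at 25.2, 7.74 and 11.5 CPM (counts per gene relative to the TMM-scaled library size) in the Krt9 null libraries of P3, below every WT library of that day, which held between 32.9 and 83.0 CPM. On P0 it was at 6.08 and 5.32 CPM in the Krt9 null libraries, within the WT range of 2.09 to 7.61 CPM, so Krt9 RNA did not separate the genotypes on that day. Krt19 was at 48.9 to 209 CPM in the 5 Krt9 null libraries and at 0.865 to 1.95 CPM in the 9 WT libraries. It was the 1 gene called for genotype on each day. The label of WT replicate 4 of P0 is female, yet Xist, the RNA of the silenced X, was at 0.181 CPM and the Y gene Ddx3y at 0.155 CPM in it, so neither marked its sex. The deposited columns fall into 2 alphabetical runs, block A with 8 libraries and block B with 6, which cut across the groups and are not a batch named by the labels. Libraries of all 4 groups lie in each block.

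The day comparison in WT paws held most of the changes. Of the 17 replication genes, 16 were called higher on P3 than on P0 and 1 was not called, and of the 27 mitosis genes, 18 were called higher and 9 were not called (edgeR's quasi-likelihood test, called at an adjusted p under 0.05). Of all 21619 genes tested, 16.6% were called in this comparison, 8.49% higher and 8.07% lower. Of these 3581 calls 1836 were higher, against 2376 of 3438 with scaling by library size only. The median log2 fold change was 0.83 over the replication genes (range 0.27 to 1.15) and 0.43 over the mitosis genes (range 0.01 to 0.81), beside -0.01 over all genes tested. All 44 values were above 0, against 49.1% of all genes tested. Within the blocks, the log2 ratio of mean CPM was above 0 for 44 genes in block A. In block B, with 1 WT library of P0, it was above 0 for 37 of the 44. The 5 WT libraries of P3 all lay above the 4 of P0 for 16 replication and 17 mitosis genes, a pattern that 8.96% of all genes tested showed. Without WT replicate 4 of P0 the counts were again 16 and 18, beside 4108 of all 21229 genes tested in that fit. The medians were 0.83 and 0.48. With column block as a term the counts were 16 and 21, beside 25.8% of all genes tested.

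**Figure D1:**
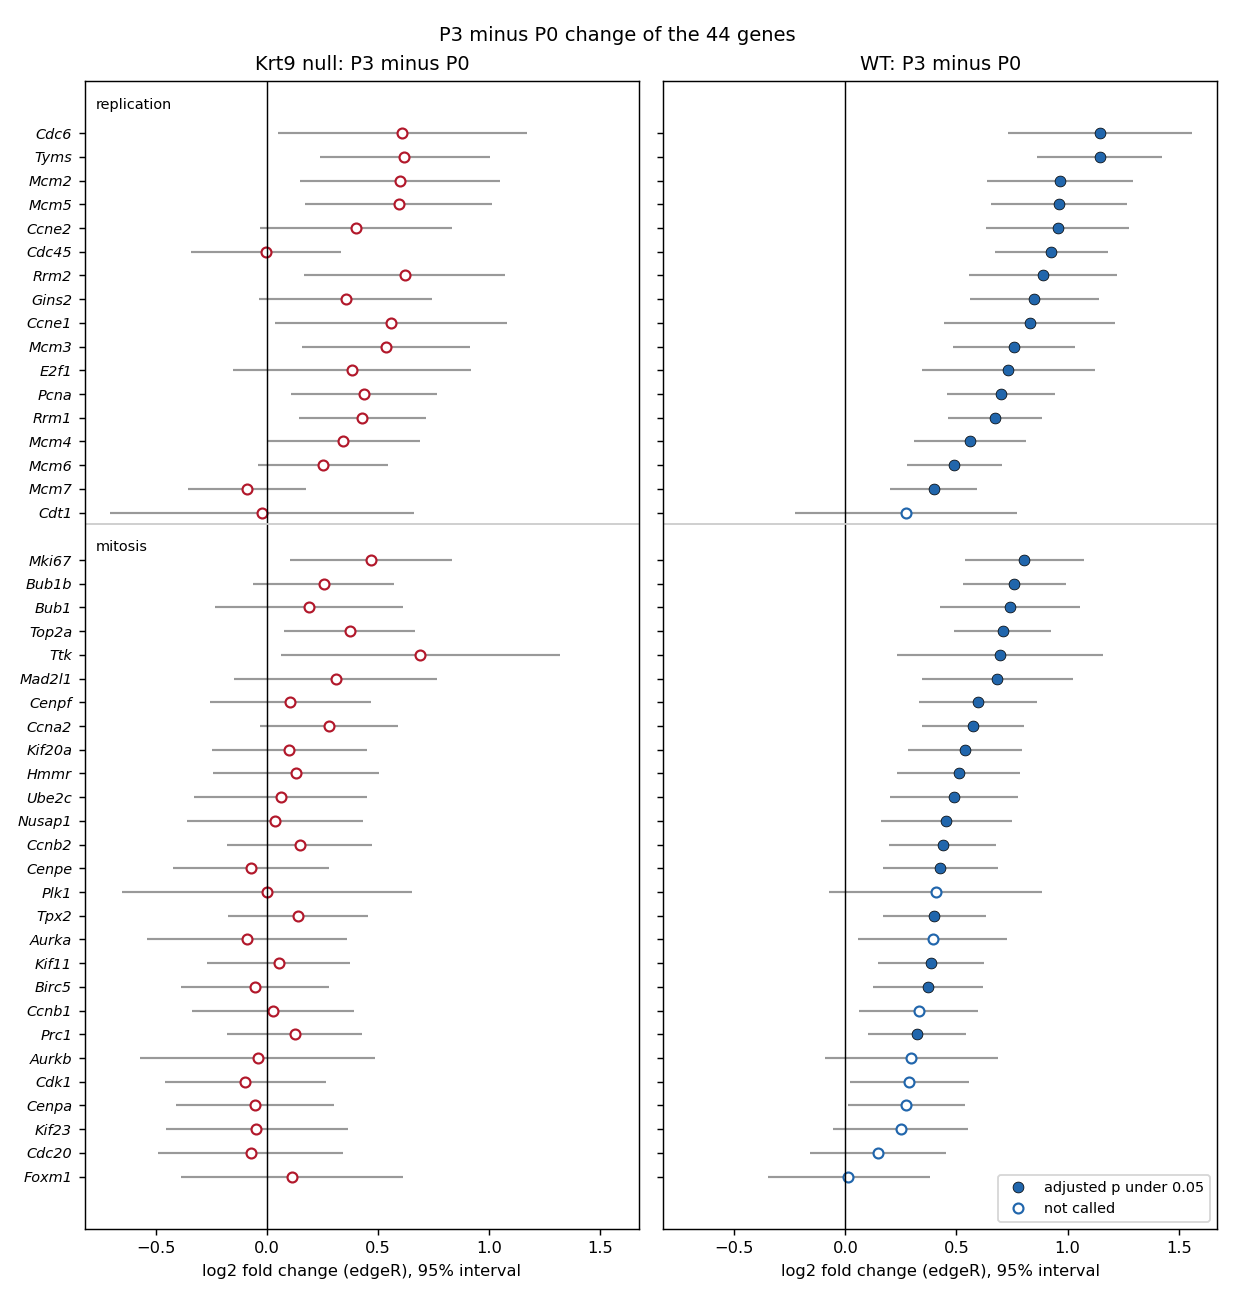
Fitted log2 fold change of each of the 44 genes, P3 minus P0, in Krt9 null paws (left panel) and in WT paws (right panel), with 95% intervals and filled symbols for genes called by edgeR. The filled symbols are the 16 replication and 18 mitosis genes called in WT paws, and no symbol is filled in the Krt9 null panel.

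Among the subunits of the MCM helicase, which unwinds DNA at the replication fork, Mcm2 was at 70.3, 93.9, 88.5, 98.5 and 72.9 CPM in WT paws on P3 and at 43.9, 39.6, 49.0 and 40.3 CPM on P0. Mcm5 was at 73.1, 93.6, 94.1, 102 and 82.6 CPM on P3 and at 42.7, 47.5, 50.9 and 41.9 CPM on P0. The days did not overlap for either gene. Mcm2 rose 1.95-fold (log2 0.97, SE 0.15, edgeR's adjusted p = 0.00155), and Mcm5 rose 1.95-fold (log2 0.96, SE 0.14, edgeR's adjusted p = 0.00113). Mcm3 rose by 0.76, Mcm4 by 0.56, Mcm6 by 0.49 and Mcm7 by 0.40 on the log2 scale, so the 6 subunits differed in size of change between 1.32-fold and 1.95-fold.

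The loading and activation factors of the helicase differed more widely. Cdc6, which loads the helicase at origins, rose 2.22-fold (log2 1.15, SE 0.19, edgeR's adjusted p = 0.00216), the highest fold among the 44. Cdt1, its partner in loading, was at 21.1, 32.3, 33.8, 31.8 and 18.8 CPM on P3 and at 21.8, 22.4, 27.3 and 19.4 CPM on P0 in WT paws. The days overlapped, and Cdt1 was the 1 replication gene not called (log2 0.27, 95% interval -0.23 to 0.77, edgeR's adjusted p = 0.47). The 2 lowest P3 values were those of block B. Cdc45, which joins the loaded helicase and activates it, was at 17.2, 20.1, 18.9, 21.3 and 22.8 CPM on P3 and at 10.8, 9.93, 10.5 and 11.0 CPM on P0. Every P3 value lay well above every P0 value, and the rise was 1.90-fold (log2 0.93, SE 0.12, edgeR's adjusted p = 0.000567). Gins2, a subunit of the GINS complex that acts with Cdc45, rose 1.80-fold.

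Genes of nucleotide supply and of the fork rose as well. Tyms, the thymidylate synthase, was at 35.7, 38.6, 37.8, 40.9 and 47.8 CPM in WT paws on P3 and at 17.3, 14.6, 18.7 and 22.3 CPM on P0. It had the smallest adjusted p of the 44 genes and rose 2.21-fold (log2 1.14, SE 0.13, edgeR's adjusted p = 0.000377). Rrm1, the large subunit of ribonucleotide reductase, was at 131, 151, 124, 131 and 151 CPM on P3 and at 76.7, 87.8, 90.1 and 92.0 CPM on P0. The days did not overlap, and Rrm1 rose 1.59-fold (log2 0.67, SE 0.10, edgeR's adjusted p = 0.00101), while the small subunit Rrm2 rose 1.85-fold. Pcna, the sliding clamp of the DNA polymerases, was at 134, 118, 107, 115 and 141 CPM on P3 and at 69.1, 73.9, 77.2 and 82.6 CPM on P0. It rose 1.63-fold (log2 0.70, SE 0.11, edgeR's adjusted p = 0.00169).

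The regulators of S phase entry followed. Ccne2, one of the cyclins E that activate Cdk2, was at 18.5, 26.0, 19.1, 25.4 and 31.2 CPM in WT paws on P3 and at 9.17, 12.6, 12.4 and 16.9 CPM on P0. The rise was 1.94-fold (log2 0.96, SE 0.15, edgeR's adjusted p = 0.00151). Its paralog Ccne1 rose 1.78-fold, and E2f1, the transcription factor that drives many of these genes, rose 1.66-fold (edgeR's adjusted p = 0.00783 and 0.0155). All 3 regulators lay above every P0 value in all P3 libraries of WT paws.

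Of the mitosis genes, Mki67, which encodes the Ki-67 protein of cycling cells, had the largest change. It was at 387, 467, 317, 326 and 353 CPM in WT paws on P3 and at 201, 205, 205 and 232 CPM on P0. The days did not overlap, and Mki67 rose 1.75-fold (log2 0.81, SE 0.12, edgeR's adjusted p = 0.00143). Top2a, the topoisomerase that untangles replicated chromosomes, was at 239, 282, 239, 237 and 278 CPM on P3 and at 143, 154, 155 and 176 CPM on P0. It rose 1.63-fold (log2 0.71, SE 0.10, edgeR's adjusted p = 0.000939).

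The spindle checkpoint genes, which hold a cell in mitosis until its chromosomes are attached, were all called higher. Bub1b, the checkpoint protein BubR1, was at 44.9, 58.0, 51.4, 51.8 and 46.4 CPM in WT paws on P3 and at 28.9, 26.5, 31.5 and 31.8 CPM on P0. It rose 1.70-fold (log2 0.76, SE 0.11, edgeR's adjusted p = 0.000928). Bub1, its related kinase, was at 23.0, 28.1, 25.4, 23.0 and 31.5 CPM on P3 and at 15.4, 12.6, 15.4 and 19.7 CPM on P0. It rose 1.67-fold (log2 0.74, SE 0.15, edgeR's adjusted p = 0.00489). Ttk, the Mps1 kinase, rose 1.62-fold and Mad2l1 rose 1.61-fold.

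The core mitotic cyclins and kinases changed less evenly. Ccna2, the cyclin of S phase and G2, was at 79.1, 94.4, 77.4, 83.1 and 78.9 CPM in WT paws on P3 and at 56.8, 51.3, 51.5 and 64.0 CPM on P0. It rose 1.49-fold (log2 0.57, SE 0.11, edgeR's adjusted p = 0.00365), and Ccnb2 rose 1.36-fold. Cdk1, the kinase of entry into mitosis, was at 72.4, 81.4, 67.6, 70.9 and 81.7 CPM on P3 and at 60.7, 58.1, 55.4 and 74.0 CPM on P0. The days overlapped through WT replicate 4 of P0, and Cdk1 was not called (log2 0.29, 95% interval 0.02 to 0.56, edgeR's adjusted p = 0.133). Ccnb1, the cyclin B1 partner of Cdk1, was at 66.3, 76.9, 62.4, 62.1 and 78.0 CPM on P3 and at 56.5, 52.2, 52.4 and 60.7 CPM on P0. These values did not overlap, yet Ccnb1 was not called (log2 0.33, SE 0.13, edgeR's adjusted p = 0.0883).

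Plk1, a kinase of spindle assembly and cytokinesis, was at 18.2, 38.5, 33.5, 33.6 and 18.9 CPM in WT paws on P3 and at 20.4, 19.6, 23.8 and 21.8 CPM on P0. The P3 values split by column block: the 2 libraries of block B lay below all P0 values, and the 3 of block A lay above all of them. Plk1 was not called (log2 0.41, 95% interval -0.07 to 0.89, edgeR's adjusted p = 0.239). The Aurora kinases Aurka and Aurkb had log2 fold changes of 0.39 and 0.30 and were not called, while Birc5, the survivin subunit of the Aurkb complex, rose 1.30-fold. With column block as a term edgeR called Plk1, Aurka and Ccnb1 as well, beside 25.8% of all genes tested.

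Among the motors and spindle proteins, Kif20a, which acts in cytokinesis, rose 1.45-fold and Hmmr, a spindle-associated protein, rose 1.42-fold. Kif11, the motor that separates the spindle poles, rose 1.31-fold, and the spindle assembly factor Tpx2, the microtubule binder Nusap1 and the midzone protein Prc1 rose between 1.25-fold and 1.37-fold. Kif11 and Prc1 were called although their days overlapped. Kif23, a motor of the midzone, had a log2 fold change of 0.25 and was not called. At the kinetochore, Cenpf rose 1.51-fold and the motor Cenpe rose 1.35-fold, while the centromeric histone Cenpa was not called (log2 0.27). Of the genes of the anaphase-promoting complex, the E2 enzyme Ube2c rose 1.40-fold and the activator Cdc20 was not called (log2 0.15). Foxm1, the transcription factor of the G2 wave, had a log2 fold change of 0.01 (95% interval -0.35 to 0.38).

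**Figure D2:**
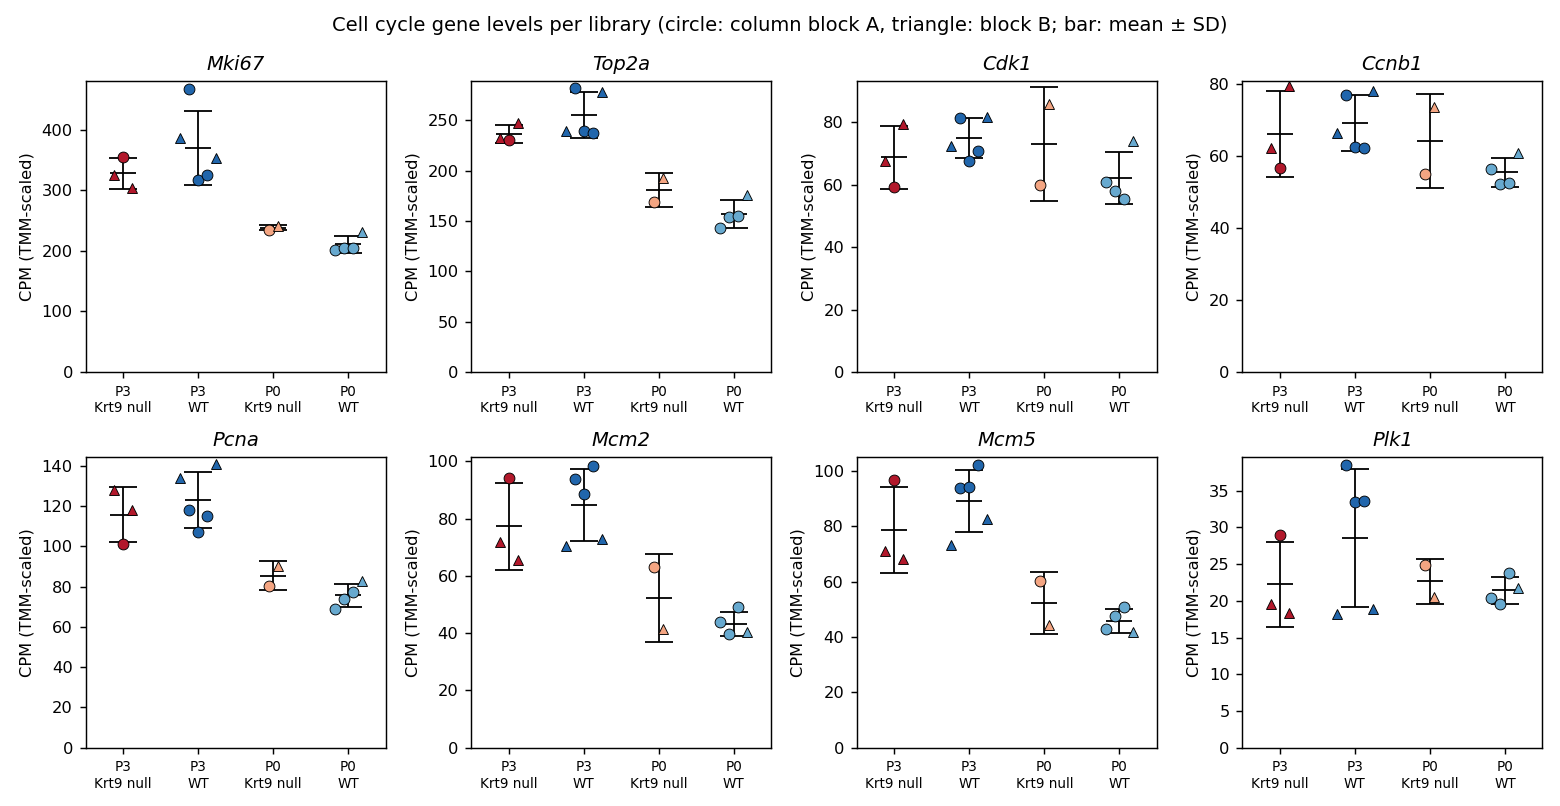
TMM-scaled CPM of 8 genes in each library, with circles for column block A, triangles for block B and bars for mean ± SD, in the order P3 Krt9 null, P3 WT, P0 Krt9 null and P0 WT. Mki67, Top2a, Pcna, Mcm2 and Mcm5 lie higher in all WT libraries of P3 than in those of P0, while Plk1 in WT paws of P3 splits into 18.2 and 18.9 CPM in block B and 33.5 to 38.5 CPM in block A.

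Promoters of genes from both classes are shown because E2F sites and the CHR element (cell cycle genes homology region) are the textbook marks of the S phase and G2 waves. RefSeq gave a promoter, 250 bases before to 50 after the start, for 36 of the 44 genes (GRCm38.p6, which is not the build of the counts). The first 4 belong to the genes of each class with the smallest adjusted p in WT paws, and Mcm5 and Cdk1 were added after their motifs were seen. They lie at chr5:30073576-30073875 (Tyms, minus strand), chr16:18811923-18812222 (Cdc45, minus), chr2:118597961-118598260 (Bub1b, plus), chr11:99024140-99024439 (Top2a, minus), chr8:75109259-75109558 (Mcm5, plus) and chr10:69352863-69353162 (Cdk1, minus). Sequences run 5′ to 3′ on the gene's strand, and capitals mark matches to the E2F, CHR and CCAAT letters on either strand.
Tyms: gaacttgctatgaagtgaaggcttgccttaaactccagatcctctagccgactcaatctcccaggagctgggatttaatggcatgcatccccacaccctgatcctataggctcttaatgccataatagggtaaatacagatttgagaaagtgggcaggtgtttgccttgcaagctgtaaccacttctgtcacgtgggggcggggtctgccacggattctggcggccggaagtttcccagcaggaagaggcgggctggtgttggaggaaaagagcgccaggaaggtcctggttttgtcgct
Cdc45: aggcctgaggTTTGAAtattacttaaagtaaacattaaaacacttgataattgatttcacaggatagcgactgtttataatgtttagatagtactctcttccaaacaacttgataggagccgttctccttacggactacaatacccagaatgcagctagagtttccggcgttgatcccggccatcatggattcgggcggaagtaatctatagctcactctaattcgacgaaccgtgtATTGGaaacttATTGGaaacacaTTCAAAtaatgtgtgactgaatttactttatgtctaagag
Bub1b: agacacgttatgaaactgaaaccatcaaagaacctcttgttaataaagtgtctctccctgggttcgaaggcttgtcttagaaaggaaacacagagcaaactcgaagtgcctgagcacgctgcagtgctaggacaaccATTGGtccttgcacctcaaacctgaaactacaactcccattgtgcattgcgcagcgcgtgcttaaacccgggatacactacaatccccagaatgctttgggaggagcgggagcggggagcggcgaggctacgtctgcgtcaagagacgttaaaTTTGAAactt
Top2a: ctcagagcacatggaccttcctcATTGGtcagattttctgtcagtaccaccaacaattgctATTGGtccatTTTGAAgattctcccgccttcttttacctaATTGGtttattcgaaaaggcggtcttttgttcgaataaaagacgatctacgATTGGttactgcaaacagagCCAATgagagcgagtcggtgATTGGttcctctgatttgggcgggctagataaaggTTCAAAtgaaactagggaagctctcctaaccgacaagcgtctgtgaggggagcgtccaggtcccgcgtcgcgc
Mcm5: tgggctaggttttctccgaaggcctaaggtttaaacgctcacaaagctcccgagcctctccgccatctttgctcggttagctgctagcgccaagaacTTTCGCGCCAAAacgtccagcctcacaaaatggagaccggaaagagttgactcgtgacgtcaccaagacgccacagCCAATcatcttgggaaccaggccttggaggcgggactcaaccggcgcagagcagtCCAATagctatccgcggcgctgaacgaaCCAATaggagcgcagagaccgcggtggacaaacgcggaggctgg
Cdk1: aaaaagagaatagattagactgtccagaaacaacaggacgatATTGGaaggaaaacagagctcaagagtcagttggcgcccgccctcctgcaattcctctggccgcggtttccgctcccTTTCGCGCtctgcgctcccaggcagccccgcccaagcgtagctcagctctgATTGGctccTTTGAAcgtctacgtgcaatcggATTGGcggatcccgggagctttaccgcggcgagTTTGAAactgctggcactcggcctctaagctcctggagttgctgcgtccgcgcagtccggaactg

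The letters searched on both strands were TTTGGCGC, TTTGCCGC, TTTCGCGC and TTTCCCGC for E2F, TTTGAA for CHR and CCAAT for the CCAAT box. The E2F letters stood in 6 of 14 replication promoters (42.9%), in 1 of 22 mitosis promoters (4.55%) and in 2.26% of all 32851 promoters. CHR stood in 2 of 14 (14.3%), 16 of 22 (72.7%) and 17.9%, and CCAAT in 9 of 14 (64.3%), 19 of 22 (86.4%) and 37.4%. The Mcm5 promoter held 2 overlapping E2F matches that begin at positions -153 and -149 (the base before the start is -1), and that of Cdk1 held 1 E2F match beside 2 of CHR. The Top2a promoter held 2 CHR and 6 CCAAT matches, that of Bub1b 1 of each, and that of Cdc45 2 of each. The Tyms promoter held none of these letters, although Tyms had the smallest adjusted p of the 44 genes. A match describes the letters only.

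Set side by side, the replication genes had larger day changes than the mitosis genes in WT paws. Their median log2 fold change exceeded that of the mitosis genes by 0.40, and by 0.30 to 0.46 over 31 alternative settings, so replication was the higher class in 31 of 31. The class means of log2(CPM + 1) per library show the same shift. The replication mean was 5.64 ± 0.13 on P3 (SD, n = 5) and 4.90 ± 0.09 on P0 (n = 4) in WT paws, and the mitosis mean was 5.75 ± 0.13 on P3 and 5.32 ± 0.11 on P0. Replication minus mitosis was -0.14, -0.20, -0.06, 0.02 and -0.16 in the WT libraries of P3, and -0.53, -0.34, -0.30 and -0.51 in those of P0. The days did not overlap over all WT libraries. In Krt9 null paws this difference was -0.13, 0.05 and -0.32 on P3 and -0.195 and -0.59 on P0, where the days overlapped. The difference of the medians there was 0.33, and 0.16 to 0.50 over the alternatives, with replication higher in 31 of 31. These class values are descriptions without a test, since the genes were chosen with earlier results known.

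**Figure D3:**
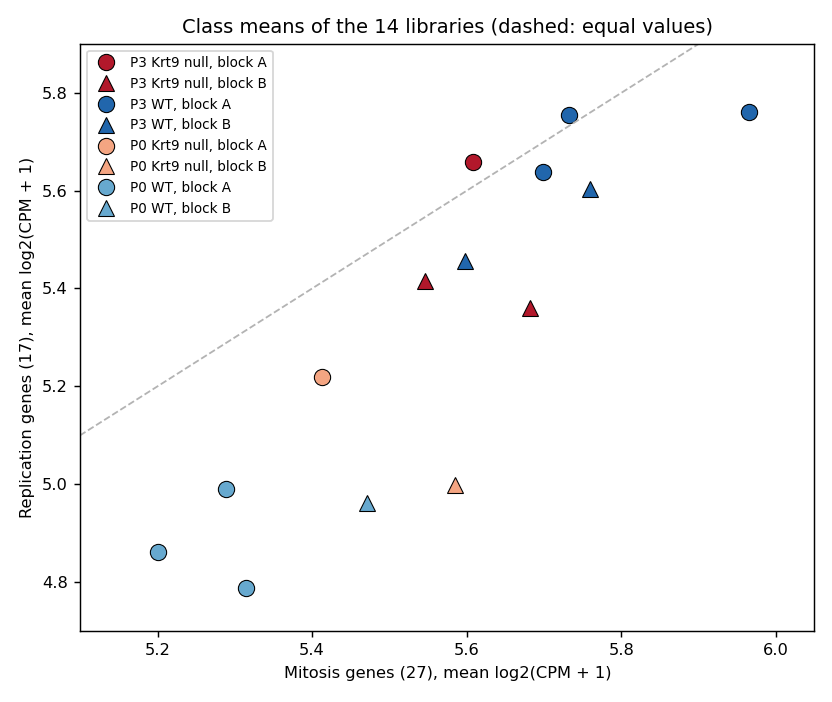
Mean log2(CPM + 1) of the 17 replication genes against that of the 27 mitosis genes in each of the 14 libraries, with a dashed line where both are equal. P3 libraries lie nearer the line than P0 libraries in WT paws, with a mean replication minus mitosis of -0.11 on P3 and -0.42 on P0.

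Single libraries and other settings changed the number of calls in WT paws, for all genes as well. Of the genes called, 15 replication and 8 mitosis genes were called in each of 14 fits that left out 1 library, and 11 and 3 in all 29 alternative fits. The 11 were Mcm2, Mcm3, Mcm5, Pcna, Rrm1, Rrm2, Tyms, Cdc6, Cdc45, Gins2 and Ccne2, and the 3 were Mki67, Top2a and Bub1b. The number of mitosis genes called was 9 without WT replicate 1, 2 or 3 of P0, where 8.32%, 9.12% and 7.49% of all genes tested were called. It was 10 without WT replicate 2 or 5 of P3, where 11.4% and 11.1% were. Over the 14 fits the calls among all genes numbered 1629 to 4332, against 3581 with all libraries. With litter within a day as a replicate block, 16 replication and 11 mitosis genes were called (13.9% of all genes tested). With the litter number across days as a fixed term in place of sex, the counts were 11 and 3 (5.51%). That fit had 3 residual degrees of freedom, and libraries alone in their litter number did not inform its day and genotype estimates. Within block A alone the medians were 0.98 and 0.55, and within block B, with 1 WT library of P0, they were 0.62 and 0.32.

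Column block and base composition moved with part of these genes. Of the 44, 5 were called higher in block B than in block A (Cdk1, Pcna, Nusap1, Mad2l1 and Ttk) and 9 lower (Cdt1, Plk1, E2f1, Foxm1, Mcm2, Mcm5, Cdc20, Mcm3 and Ube2c), beside 23.2% of all genes tested. Cdt1 differed by -0.61 and Plk1 by -0.52 on the log2 scale, block B minus block A. Across the 44 genes the block difference correlated with the GC content of the longest transcript at r = -0.77 (rho = -0.74), given as a description because the genes share libraries. With a GC offset per library, added after seeing the data, 16 replication and 11 mitosis genes were called in WT paws beside 20.3% of all genes tested, with medians of 0.71 and 0.29. That offset moved the median of all genes to -0.13 and called 1380 genes higher and 2999 lower, so relative to it the class medians were 0.84 and 0.425.

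In Krt9 null paws none of the 44 genes was called between the days by edgeR (3 libraries of P3 against 2 of P0), and 0.768% of all genes tested were. At an unadjusted p under 0.05 there were 9 of 17 replication and 3 of 27 mitosis genes, beside 3435 of all 21619 genes tested. The median log2 fold change was 0.43 over the replication genes, with 14 of 17 above 0, and 0.10 over the mitosis genes, with 18 of 27 above 0. The P3 libraries all lay above those of P0 for 12 replication and 6 mitosis genes, beside 11.8% of all genes tested. DESeq2 called Rrm1 and Tyms, beside 5.06% of all genes tested. With block as a term edgeR called Mcm2, Mcm3, Mcm5, Pcna, Rrm1 and Tyms, beside 4.95% of all genes. Other settings called 1 replication gene with no filter (Rrm2, beside 4.6%), 7 with GC offset and block term (2.82%), and 11 replication and 3 mitosis genes with the block term when WT replicate 4 of P0 was left out (8.5%). Without Krt9 null replicate 2 of P3, Ttk was called, beside 2.97% of all genes tested (645 genes, against 166 with all libraries). Leaving out that library also brought the calls for genotype on P3 to 200 genes, against 1.

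Among the genes with the largest changes there, Tyms was at 36.1, 36.8 and 36.3 CPM in Krt9 null paws on P3 and at 25.2 and 21.7 CPM on P0, a log2 fold change of 0.62 (SE 0.18, edgeR's adjusted p = 0.119). Rrm2 was at 58.7, 70.0 and 48.5 CPM on P3 and at 43.5 and 34.4 CPM on P0, also 0.62 on the log2 scale (SE 0.21, edgeR's adjusted p = 0.176). Both genes were higher on P3 in every library, within a spread that did not pass the test. Cdc6 had a log2 fold change of 0.61, Mcm2 of 0.60, Mcm5 of 0.59 and Pcna of 0.44. Mki67 was at 325, 355 and 304 CPM on P3 and at 235 and 241 CPM on P0, a difference of 0.47 (SE 0.17, edgeR's adjusted p = 0.199). Top2a was at 232, 230 and 247 CPM on P3 and at 169 and 193 CPM on P0, a difference of 0.37 (SE 0.14, edgeR's adjusted p = 0.208). Ttk had the largest value of the mitosis genes (log2 0.69, SE 0.29), with 28.3, 14.4 and 29.9 CPM on P3 and 12.7 and 17.2 CPM on P0, where the days overlapped.

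Cdc45 was at 17.1, 14.6 and 17.3 CPM in Krt9 null paws on P3 and at 15.8 and 16.8 CPM on P0. The days overlapped, and the fitted change was -0.00 (95% interval -0.34 to 0.33), where WT paws had 0.93. Cdk1, Ccnb1 and Plk1 had log2 fold changes of -0.10, 0.03 and -0.00 in Krt9 null paws, with intervals that include 0.

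Whether the day change differed between the genotypes was tested by the genotype by day interaction, the change in Krt9 null paws minus that in WT paws. None of the 44 genes was called, and 0.0% of all genes tested were (0 genes, with 1644 at an unadjusted p under 0.05 and 85 called by DESeq2). The median was -0.35 over the replication genes and -0.34 over the mitosis genes, and 43 of 44 values were below 0, Foxm1 being the exception. At an unadjusted p under 0.05 there were 5 replication and 6 mitosis genes. Cdc45 had the value farthest from 0 (log2 -0.93, 95% interval -1.35 to -0.51, edgeR's adjusted p = 0.354), and DESeq2 called it beside 0.393% of all genes tested. Ccne2 had -0.56, Cdc6 -0.54, Bub1 -0.55, Bub1b -0.51 and Cenpe -0.50. With the block term and WT replicate 4 of P0 left out, edgeR called Mcm7, Cdc45, Bub1b and Ube2c, beside 7.02% of all genes tested.

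Between the genotypes on P3 none of the 44 genes was called (3 Krt9 null against 5 WT libraries), and 0.00463% of all genes tested were, which is Krt19 alone. At an unadjusted p under 0.05 there was 1 replication gene and no mitosis gene, beside 1442 of all 21619 genes tested. DESeq2 called none of the 44. The median log2 fold change was -0.17 in both classes, with 17 of 17 replication and 26 of 27 mitosis values below 0, the exception being Ttk at 0.23. Of all genes tested, 47.8% were above 0. The 44 values come from the same libraries, so the count of signs is a description. Within the blocks, the log2 ratio of mean CPM had opposite signs in A and B for 14 of the 44 genes. It was above 0 for 6 of the 44 in block A, with 1 Krt9 null library, and for 8 in block B. Both medians were below 0 in 31 of 31 alternative settings. Within block B alone 1 mitosis gene was called, beside 8.77% of all genes tested (1968 genes, against 1 with all libraries). That fit had 1 residual degree of freedom, so its estimate of the spread is weak. The Krt9 null libraries lay below all WT libraries for Ccna2 only, at 61.9, 77.3 and 73.7 CPM against 77.4 to 94.4 CPM in WT paws, beside 1.27% of all genes tested. Cdc45 had -0.31 (95% interval -0.58 to -0.03, edgeR's adjusted p = 0.726), Cdc6 -0.29, Ccne2 -0.28, Plk1 -0.33, Aurkb -0.29 and Kif20a -0.25.

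Mki67 on P3 was at 325, 355 and 304 CPM in Krt9 null paws and at 317 to 467 CPM in WT paws (median 353), and the genotypes overlapped. Its log2 fold change was -0.16 with a 95% interval of -0.46 to 0.13. Top2a had -0.13, Pcna -0.09, Mcm2 -0.10, Mcm5 -0.18, Cdk1 -0.16 and Ccnb1 -0.10, and every interval included 0.

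Between the genotypes on P0 none of the 44 genes was called either (2 Krt9 null against 4 WT libraries), with Krt19 again the 1 gene called of all genes tested (0.00463%). At an unadjusted p under 0.05 there were 3 replication genes and 1 mitosis gene, beside 1289 of all 21619 genes tested. DESeq2 called none of the 44. The medians were 0.19 and 0.22, with 17 of 17 replication and 26 of 27 mitosis values above 0, the exception being Foxm1 at -0.32. Of all genes tested, 49.5% were above 0. Cdc45 had the largest difference, at 15.8 and 16.8 CPM in Krt9 null paws and at 10.8, 9.93, 10.5 and 11.0 CPM in WT paws. The genotypes did not overlap, but the difference did not pass over all genes (log2 0.62, SE 0.15, unadjusted p = 0.000786, edgeR's adjusted p = 0.831). Tyms had 0.37, Mcm7 0.32, Bub1b 0.35, Nusap1 0.34 and Bub1 0.34.

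The Krt9 null libraries of P0 lay above all WT libraries for Mcm7, Cdc45, Mki67, Bub1b, Cenpe, Cenpf, Ube2c and Hmmr, beside 6.47% of all genes tested, and below them for Foxm1, beside 4.82%. The replication median depended on which Krt9 null library was left out: it was -0.02 without replicate 1 and 0.38 without replicate 2. Replicate 1 is of block A, labelled male and of litter 1, while replicate 2 is of block B, labelled female and of litter 7. Block, sex and litter cannot be told apart here. The replication median was 0.38 within block A and -0.00 within block B, each with 1 Krt9 null library. With the block term and WT replicate 4 left out, edgeR called Mcm2, Mcm7, Cdc45, Bub1b and Ube2c higher, and 5.89% of all genes tested in either direction. The P0 and P3 genotype comparisons share no library, but each shares its WT libraries with the WT day comparison.

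**Figure D4:**
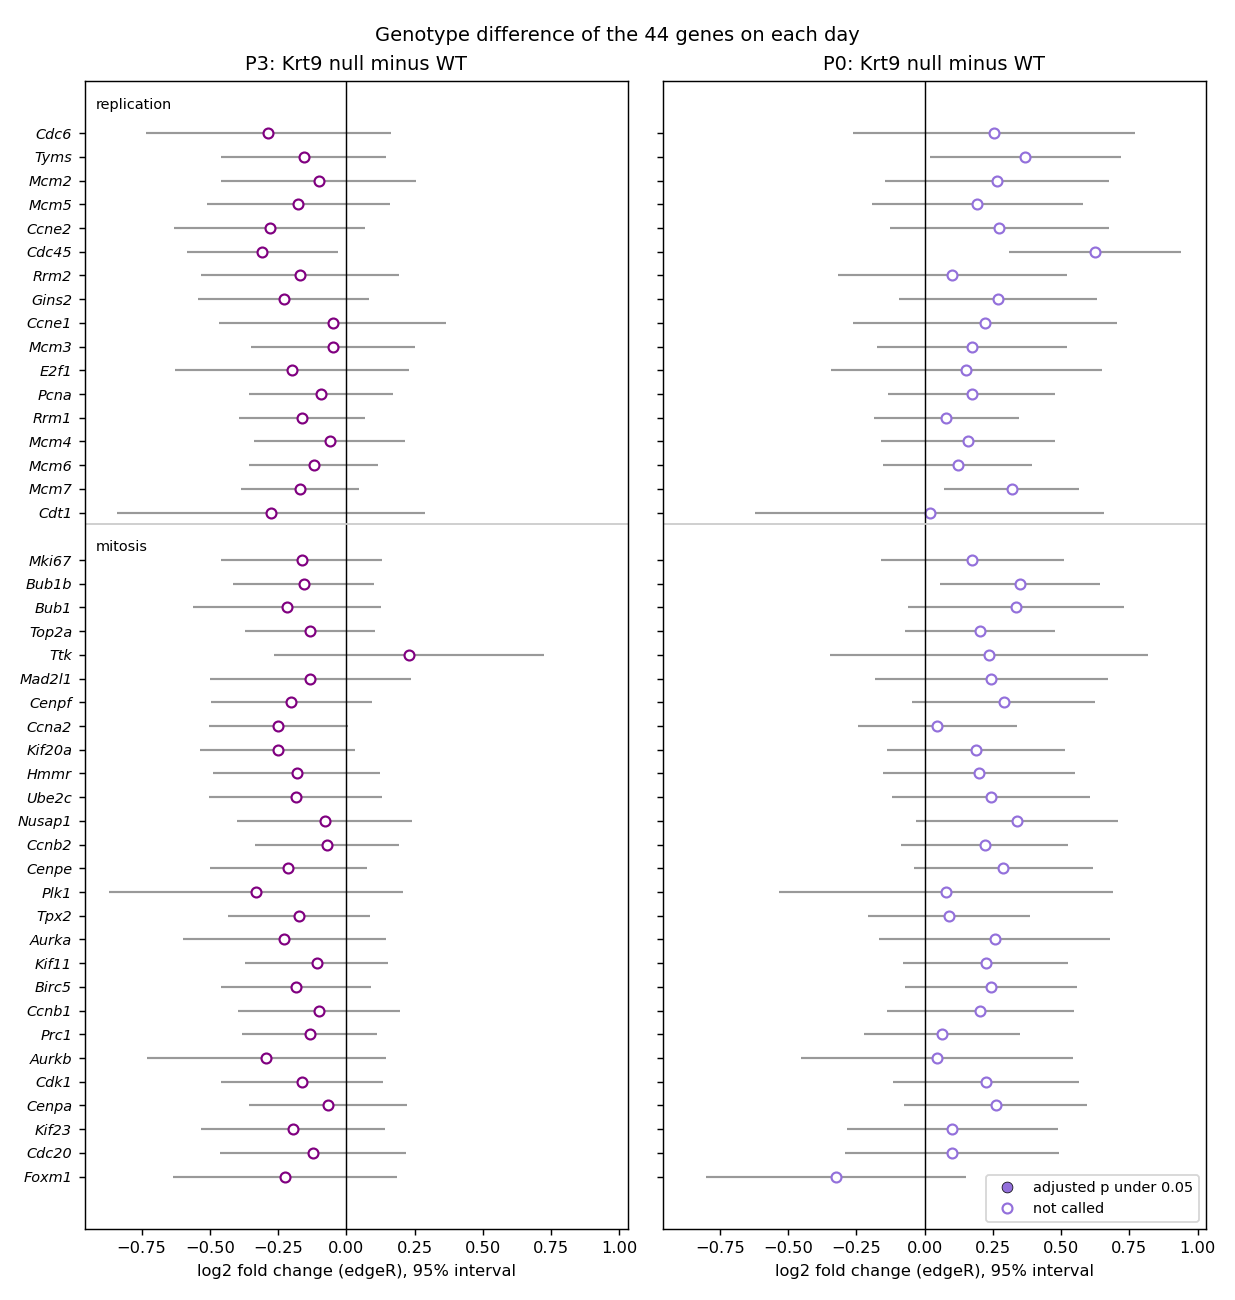
Fitted log2 fold change of each of the 44 genes, Krt9 null minus WT, on P3 (left panel) and on P0 (right panel), with 95% intervals. Values lie mainly below 0 on P3 (medians -0.17 and -0.17) and mainly above 0 on P0 (medians 0.19 and 0.22), and no gene was called on either day.

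Compared per kilobase of the longest transcript, the level of these genes spanned a wide range. In WT paws of P3, Pcna was highest at 80.9 CPM per kb, followed by Top2a at 48.8 and Mki67 at 36.8 CPM per kb. Cdc6 was lowest at 3.48 and Gins2 next at 5.04 CPM per kb. Pcna, Top2a and Cdc6 held the same places in WT paws of P0, at 49.9, 30.1 and 1.57 CPM per kb.

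Further genes of the same pathways also changed between the days in WT paws, where 8.49% of all genes tested rose and 8.07% fell. Of 44 other replication genes, 31 rose on P3, 0 fell and 13 were not called, with a median of 0.64. The histone chaperone Asf1b rose by 1.15, the single-strand binder Rpa1 by 0.81 and the thymidine kinase Tk1 by 0.76 on the log2 scale (edgeR's adjusted p = 0.0004, 0.000468 and 0.000736). Of 62 other mitosis genes, 25 rose, 0 fell and 37 were not called, with a median of 0.35, led by the centromere gene Cenpm at 1.16, the kinesin Kif15 at 0.57 and the kinetochore gene Nuf2 at 0.77. Of 19 genes of the DNA damage checkpoint and repair, 11 rose, 1 fell and 7 were not called, with a median of 0.52. The helicase Brip1 rose by 1.06 and Brca1 by 0.78, while Wee1, the kinase that restrains Cdk1, fell by 1.14 on the log2 scale (edgeR's adjusted p = 0.00226).

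The list of G1 cyclins and the Rb-E2F axis lay nearer to those shares. Of 24 genes tested among the G1 cyclins, their kinases and the Rb-E2F axis, 4 rose (E2f2 by 1.62, Rbl1 by 0.62, Tfdp1 by 0.38 and Cdk4 by 0.34), 2 fell (Cdk6 by 0.45 and Tfdp2 by 0.54) and 18 were not called, with a median of 0.04. Of 20 CDK inhibitors and genes of cell cycle exit, 8 fell, 3 rose and 9 were not called, with a median of -0.34. The stress-induced genes Plk3 and Gadd45g fell by 1.14 and 1.01, and the inhibitors Cdkn1a (p21) and Cdkn1c (p57) by 0.75 and 0.59. The inhibitor Cdkn2c (p18) rose by 0.55 and the phosphatase Cdkn3 by 0.91. The fitted changes of each list are shown in the plot of lists by day change.

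In Krt9 null paws, 1 gene of these lists was called in each of 3 lists between the days: Asf1b rose by 0.85, E2f2 rose by 1.42 and the cyclin G gene Ccng2 fell by 0.95 on the log2 scale (edgeR's adjusted p = 0.0494, 0.0367 and 0.0257). Of all genes tested, 0.338% were called higher and 0.43% lower in this comparison. No gene of the other mitosis or DNA damage lists was called. For genotype on each day and for the interaction, none of the 5 lists held a called gene. Of all genes tested, 0.00463% were called for genotype on each day and 0.0% for the interaction. Their most abundant members on P3 were the DNA methyltransferase Dnmt1 at -0.00, its partner Uhrf1 at -0.12, the condensin Smc4 at -0.17, Ckap5 at 0.11, the cyclin Ccnd2 at -0.14, Cdk4 at -0.15, Gas1 at 0.06, Cdkn1c at -0.16, Wee1 at 0.00 and Msh6 at 0.00 (log2, Krt9 null minus WT).

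**Figure D5:**
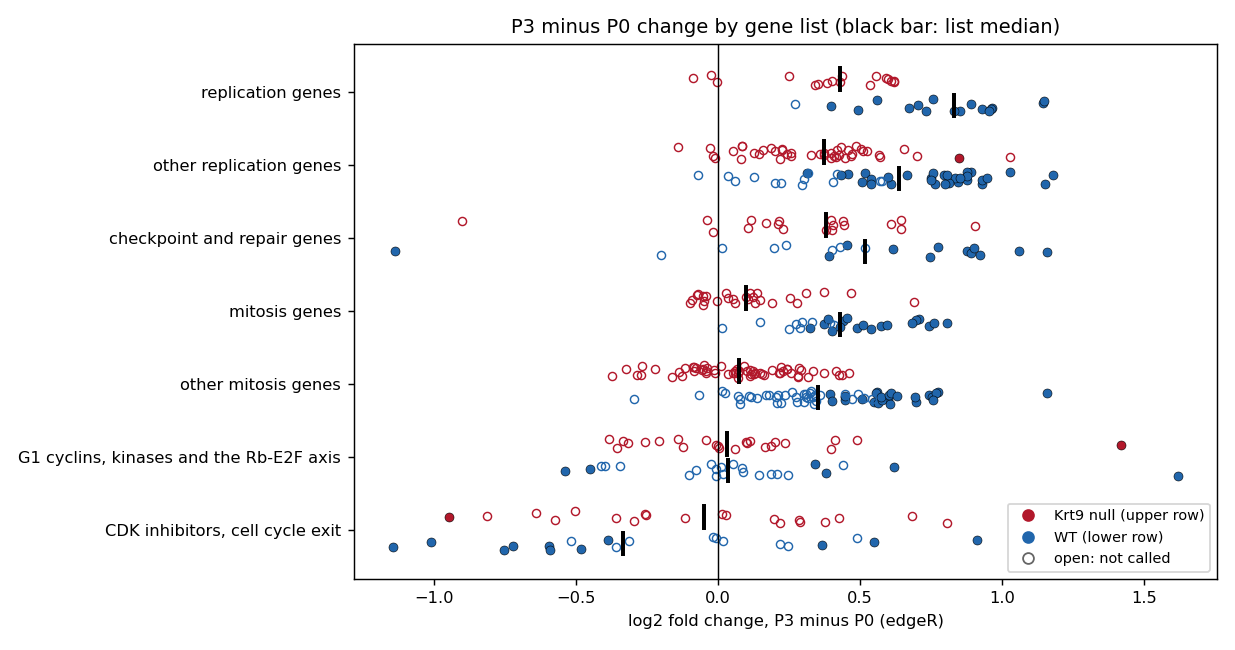
Fitted log2 fold change, P3 minus P0, of the genes of 7 lists (replication genes, mitosis genes and 5 other pathway lists), with Krt9 null paws in red in the upper row and WT paws in blue in the lower row of each list and a black bar at the median. In WT paws the medians are 0.83 for the 17 replication genes, 0.43 for the 27 mitosis genes, 0.64 for other replication, 0.52 for DNA damage, 0.35 for other mitosis, 0.04 for G1 and -0.34 for CDK inhibitor and exit genes.

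Markers of the cell types in a paw also moved between the days in WT paws, and their part in the result was not tested. Their counts stand beside the 8.49% of all genes that rose and the 8.07% that fell. Of the hair follicle markers (Lef1, Msx2, Hoxc13, Trps1, Krt71, Krt25 and Krt27) 5 of 7 rose, with a summed level of 405 to 1550 CPM on P3 and 155 to 220 CPM on P0. Krt71, Krt25 and Krt27 are keratins of the inner root sheath, so this list does not mark dividing matrix cells alone. Of the leukocyte markers 4 of 6 rose (492 to 648 CPM on P3, 242 to 359 CPM on P0). Of the erythroid markers 4 of 9 rose (530 to 2600 CPM on P3, 537 to 3680 CPM on P0). Of the muscle fibre markers 4 of 7 fell (1670 to 3100 CPM on P3, 3860 to 11600 CPM on P0), as did 2 of 6 myoblast markers (28.9 to 62.7 CPM on P3, 98.7 to 169 CPM on P0). Among basal keratinocyte markers 3 of 7 fell (4640 to 7100 CPM on P3, 5460 to 9590 CPM on P0), among suprabasal markers 2 of 7 (15800 to 26700 CPM on P3, 17600 to 40500 CPM on P0) and among endothelial markers 1 of 6 (368 to 491 CPM on P3, 504 to 614 CPM on P0). Of the fibroblast markers 1 of 6 fell, and none of 8 chondrocyte markers was called. Every marker reached 0.1 CPM in at least 1 library of each group.

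In Krt9 null paws 1 of 6 leukocyte markers (Lyz2) rose between the days, with a summed level of 389 to 605 CPM on P3 and 283 to 296 CPM on P0. Of the endothelial markers 3 of 6 (Pecam1, Emcn and Esam) fell (243 to 435 CPM on P3, 523 to 612 CPM on P0), beside 0.43% of all genes lower and 0.338% higher. None of the 7 suprabasal markers was called for genotype. Their log2 fold changes were all above 0 on P3 (median 0.94), with a summed level of 19800 to 47700 CPM in Krt9 null and 15800 to 26700 CPM in WT paws. On P0 they were all below 0 (median -0.62), with 12500 to 21900 CPM in Krt9 null and 17600 to 40500 CPM in WT paws. The cell cycle genes had the opposite signs on each day, and the part of the suprabasal share in them was not tested. Other marker lists moved with genotype as well, with no marker called. The endothelial markers were all below 0 on P3 (median -0.48), with a summed level of 243 to 435 CPM in Krt9 null and 368 to 491 CPM in WT paws. Of these 6 markers, 3 had an unadjusted p under 0.05 on P3, beside 1442 of all 21619 genes tested. On P0 the endothelial median was 0.02, with 3 of 6 above 0, and all 6 were below 0 for the interaction (median -0.49). The hair follicle markers were all above 0 on P0 (median 0.515) and 6 of 7 were on P3 (median 0.15), and the 7 were below 0 for the interaction (median -0.37). Those of basal keratinocytes were all below 0 on P0 (median -0.23), and 6 of 7 were above 0 on P3 (median 0.14). The erythroid median was 0.74 on P3 and -0.61 on P0, that of muscle fibres -0.32 on P3 and -0.76 on P0, and that of myoblasts -0.57 on P3 and -0.53 on P0. Fibroblast markers were all below 0 on P3 (median -0.18), and 4 of 6 were above 0 on P0 (median 0.04). The leukocyte median was -0.25 on P3 and -0.11 on P0, and that of chondrocytes 0.12 on P3 and -0.13 on P0. The part of these lists in the values of the cell cycle genes was not tested.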

How the data were processed

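RNA of whole paws was sequenced from ribosomal RNA-depleted total RNA, per the labels' protocols. The authors deposited raw counts of reads per gene, not normalized. STAR 2.7.10a and featureCounts appear in the submitters' processing notes, with edgeR, limma and the GRCm39 build. The sources used here do not give the annotation, filters or strand setting, so overlapping and antisense genes cannot be told apart. Of 56691 IDs, 52073 matched a symbol, and the rest (0.623% of counts) stayed in the fit.

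After filterByExpr (21619 genes kept) and TMM scaling, the quasi-likelihood model of edgeR 4.0.16 (robust dispersions, R 4.3.3) was fitted to all 14 libraries together, with group and labelled sex as terms and 9 residual degrees of freedom. P-values were adjusted by Benjamini-Hochberg over all genes tested in each of 5 contrasts, and genes were called at an adjusted p under 0.05. Fold changes are fitted values, and intervals are 95%. Class means use log2(CPM + 1). The script was tested on simulated counts. None of the 20 pairs of libraries within a group differed by only sampling noise. The 44 genes, the 5 pathway lists and the 10 marker lists were chosen with earlier results of these data known. For each contrast, 8 genes were named whatever their values, with up to 5 called genes per class by smallest adjusted p, or the 3 largest changes where none was called; for each other list, up to 3 called genes or the 2 most abundant. Other members are given by role. A gene that the rule reaches is withheld for evaluation and is not reported here.

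The labels number litters. Within a day 2 litters gave more than 1 library, Krt9 null and WT replicate 1 of P0 and WT replicates 2 and 3 of P3. Their residual correlations were -0.16 and -0.207, and the consensus correlation was 0.555 within a day and -0.054 across days. Alternatives were DESeq2 size factors, library size only, no filter, at least 1 CPM in 4 libraries, DESeq2 1.42.0, limma voom (limma 3.58.1), no sex term, dispersions without robust estimation, only the groups compared, column block as a term, each block alone, a pseudocount of 0.25, and leaving out each library. Litter within a day was also used as a replicate block, and the litter number across days as a fixed term in place of sex. A GC offset per library, alone or with the block term, and the block term with WT replicate 4 of P0 left out were chosen after seeing the data. Promoters and GC content come from annotations of another build than the counts and were joined by gene name or ID.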

Additional observations from a re-analysis of the deposited data

Results flagged for a closer look

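In groups of 4 or 5 libraries, 94 groups of values were screened for a library far from the others of its group, and chance alone flags about 1 in 20. Of these, 5 were flagged. Kif23 in WT replicate 2 of P3 was at 58.8 CPM, above 42.3 to 44.5 CPM in the other 4 WT libraries of that day. Mcm6 in WT replicate 3 of P0 was at 97.9 CPM, above 86.0 to 87.8 CPM in the other 3. Cdc6 in WT replicate 1 of P0 was at 5.96 CPM, below 7.63 to 7.75 CPM in the other 3. In WT replicate 4 of P0, the library whose Xist level was low for its sex label, Gins2 was at 14.4 CPM, above 9.75 to 10.2 CPM in the other 3. Mki67 was at 232 CPM in the same library, above 201 to 205 CPM in the other 3.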

How the results depend on the processing

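The direction of both class medians was kept in every alternative for P3 minus P0 in WT paws, for genotype on P3 and for the interaction. Where values moved, the cause was not tested. With 2 to 5 libraries a group, differences smaller than the intervals given cannot be seen. Pairs of values give the replication genes, then the mitosis genes, and medians are log2 fold changes.

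In WT paws between the days, medians were 0.98 and 0.55 in block A alone and 0.62 for replication in block B alone. The mitosis median was 0.29 with the GC offset and 0.30 with GC offset and block term, where the median of all genes was -0.13 and -0.14 (0.425 and 0.44 relative to it). Mitosis genes called numbered 11 with litter within a day as replicate block and 3 with litter number across days as a fixed term. They numbered 11 with the GC offset and 9 to 18 with 1 library left out (1629 to 4332 of all genes). In Krt9 null paws between the days, replication genes called numbered 1 with no filter (Rrm2), 2 with DESeq2, 6 with the block term, 7 with GC offset and block term, and 11 (with 3 mitosis genes) with the block term and WT replicate 4 of P0 left out. The mitosis median was 0.27 in block A alone, and the medians were 0.14 and -0.021 with litter number across days as a fixed term. With 1 library left out, the replication median was 0.31 to 0.58 and 0 to 1 mitosis genes were called (0 to 645 of all genes).

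On P0, the replication median was 0.38 in block A alone, -0.00 in block B alone, 0.36 with the block term without WT replicate 4 (3 and 2 genes called) and -0.023 to 0.38 with 1 library left out. The mitosis median was 0.062 with the GC offset and 0.073 with GC offset and block term, where the median of all genes was -0.12 in both (0.18 and 0.195 relative to it). On P3, 1 mitosis gene was called in block B alone, a fit with 1 residual degree of freedom. The replication median was -0.41 with litter number across days as a fixed term. The interaction medians were -0.51 and -0.51 with library size only and -0.16 and -0.22 in block B alone. They were -0.78 and -0.46 with litter number across days as a fixed term. With the GC offset they were -0.20 and -0.16, and with GC offset and block term -0.21 and -0.17. The GC offset moved the median of all genes to 0.15 there, so relative to it the medians were -0.35 and -0.31, and -0.36 and -0.32 with the block term. The replication median was -0.52 to -0.17 with 1 library left out, and 1 gene (DESeq2) or 2 and 2 genes (block term, WT replicate 4 of P0 left out) were called. Library size only, which moved the median of all genes to 0.104 in WT paws between the days, 0.109 on P0 and -0.182 for the interaction, called 2376 of 3438 genes higher in WT paws, against 1836 of 3581.

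Named genes that were not called changed sign as follows. On P0, Plk1 was -0.005 with the GC offset, above the median of all genes there (-0.12). With 1 library left out, Mcm2 was -0.048 to 0.53, Mcm5 -0.082 to 0.43, Plk1 -0.042 to 0.19 and Cdk1 -0.0 to 0.42. On P3, Plk1 was 0.035 in block B alone, and Cdk1 was 0.041 and Pcna 0.010 with litter number across days as a fixed term. With 1 library left out, Ccnb1 was -0.23 to 0.009, Pcna -0.24 to 0.00 and Mcm2 -0.29 to 0.017. In Krt9 null paws between the days, Plk1 was 0.005 with DESeq2 size factors and with DESeq2, 0.008 with no filter, 0.029 with the block term, 0.021 with the GC offset, 0.055 with GC offset and block term and 0.058 with block term and WT replicate 4 of P0 left out. Ccnb1 was -0.032 with library size only (median of all genes -0.06) and -0.001 with block term and that library left out. Cdk1 was 0.072 with litter number across days as a fixed term. With 1 library left out, Ccnb1 was -0.13 to 0.22, Plk1 -0.25 to 0.16 and Cdk1 -0.29 to 0.13. For blocks with 1 library in a group, the fits are given by their class medians only, without values of single genes. The log2 ratio of mean CPM on P0 had opposite signs in blocks B and A for 15 of the 44 genes, among them Plk1 (-0.09 and 0.22) and Tyms (-0.04 and 0.58). Opposite signs occurred for 14 of the 44 between the genotypes on P3. Between the days they occurred for 7 in WT paws and for 13 in Krt9 null paws.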
